A study of Mus musculus with 17 samples.

Results

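Cell proliferation is held back by a small set of inhibitor proteins, and the 10 genes described here encode the main ones together with p53 and genes that p53 switches on. They were chosen by name as genes of cell cycle arrest and the p53 pathway (Trp53, Mdm2, Cdkn1a, Cdkn1b, Cdkn1c, Cdkn2a, Cdkn2b, Cdkn2c, Ccng1 and Gdf15), and make up 10 of 35971 genes measured in kidney RNA of 17 mice. The rule for choosing them names genes and uses no measured value, but it was set with earlier results of these data known. All groups carried a lox-stop-lox PRCC-TFE3 knock-in allele, which encodes the fusion of the PRCC and TFE3 genes found in TFE3-rearranged renal cell carcinoma and is expressed only after Cre removes the stop. In 4 control mice, called Cre(-), no KSP-Cre was present, so the allele stayed silent, and 2 of them (replicates 1 and 2) also carried HIF1af/f. The other groups carried KSP-Cre, which the cadherin 16 promoter drives in kidney epithelium. They were 3 PRCC-TFE3 KI mice with no floxed gene, 4 Hif1a KO mice (KI with HIF1af/f), 3 Hif2a KO mice (KI with HIF2af/f) and 3 DKO mice (KI with both floxed genes). The labels give neither the age nor the sex of the mice, Cre acts in epithelium only, and other cells of the kidney keep the intact Hif genes and no fusion.

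The transcription factor p53, encoded by Trp53, is kept low by the ubiquitin ligase Mdm2, which is itself a p53 target, so the pair forms a feedback loop. When p53 is stabilised it raises Cdkn1a (p21), which blocks cyclin-dependent kinases, along with Mdm2, Ccng1 (cyclin G1) and Gdf15, a secreted stress cytokine. The inhibitors fall into the CIP/KIP family, formed by Cdkn1a, Cdkn1b (p27) and Cdkn1c (p57), and the INK4 family, which binds Cdk4 and Cdk6 and holds p16Ink4a from Cdkn2a, p15 from Cdkn2b and p18 from Cdkn2c. Cdkn2a also encodes p19Arf from a separate first exon, and p19Arf restrains Mdm2. p53 protein is controlled mostly by its stability, which RNA levels do not show.

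Promoter sequence was used to see where p53-like and E-box letters lie near the start sites of these genes. RefSeq windows of 300 bases (build GRCm38.p6, 250 bases before the start and 50 after it, written along the gene) were present for 9 of the 10 genes, with 13 windows in all, and Cdkn1c had none. Each window was searched for CACGTG, the E-box core that TFE3 and its relatives bind, for ACGTG on both strands, the core of the HIF response element, which every CACGTG also contains, for TCACGTGA and for TCATGTGA on both strands, and for the 10-letter p53 half-site. CACGTG was found in 3 of the 13 windows and in 7.15% of all 32851 windows, and ACGTG in 3 of 13 and in 19.6%. TCACGTGA and TCATGTGA were found in none of the 13 windows, against 0.974% and 0.986% of all windows. A p53 half-site was found in 4 of 13 windows and in 8.36% of all, and a pair of adjacent half-sites with at most 1 mismatch in 2 of 13 and in 0.0883% of all. The pairs were those of Cdkn1a and Ccng1, starting 51 and 195 bases before the start. These windows are shown because they hold the pairs, and both genes are textbook p53 targets. The Mdm2 window, not shown, has a single half-site 186 bases before the start. Capitals mark p53 half-sites and their pairs.
Cdkn1a, upstream start, chr17:29090729-29091028, + strand: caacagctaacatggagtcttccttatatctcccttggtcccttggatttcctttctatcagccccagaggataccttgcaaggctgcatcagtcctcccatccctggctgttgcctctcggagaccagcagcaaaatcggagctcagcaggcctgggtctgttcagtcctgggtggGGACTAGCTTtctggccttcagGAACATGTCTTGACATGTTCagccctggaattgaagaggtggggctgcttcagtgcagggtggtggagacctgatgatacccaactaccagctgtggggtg
Ccng1, chr11:40755237-40755536, - strand: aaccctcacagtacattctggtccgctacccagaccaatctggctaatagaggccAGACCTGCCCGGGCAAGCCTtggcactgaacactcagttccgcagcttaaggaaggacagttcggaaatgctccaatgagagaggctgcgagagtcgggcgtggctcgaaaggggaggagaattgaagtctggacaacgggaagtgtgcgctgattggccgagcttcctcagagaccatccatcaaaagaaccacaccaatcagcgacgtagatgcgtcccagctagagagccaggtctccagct

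The windows with CACGTG belong to Trp53, Cdkn2c and the downstream start of Gdf15. The E-box core lies 10 bases after the Trp53 start, 83 bases before the downstream Gdf15 start and 34 bases after the downstream Cdkn2c start. Trp53 and Gdf15 are shown with CACGTG in capitals, and the Trp53 window also has a p53 half-site in capitals.
Trp53, chr11:69580109-69580408, + strand: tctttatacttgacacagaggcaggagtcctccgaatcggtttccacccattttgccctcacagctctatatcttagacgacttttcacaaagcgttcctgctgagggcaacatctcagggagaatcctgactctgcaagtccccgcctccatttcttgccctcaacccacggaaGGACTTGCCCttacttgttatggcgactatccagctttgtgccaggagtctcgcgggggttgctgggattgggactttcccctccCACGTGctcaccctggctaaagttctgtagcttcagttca
Gdf15, downstream start, chr8:70632046-70632345, - strand: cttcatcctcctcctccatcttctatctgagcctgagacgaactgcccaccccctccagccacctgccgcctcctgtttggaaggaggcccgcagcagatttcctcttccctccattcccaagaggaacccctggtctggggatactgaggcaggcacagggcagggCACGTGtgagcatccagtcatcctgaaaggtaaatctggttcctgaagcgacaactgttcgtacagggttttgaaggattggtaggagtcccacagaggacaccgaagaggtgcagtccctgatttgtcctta
These are matches of letters only, and no binding was measured.

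Levels are given as CPM, counts relative to library totals after TMM scaling, and as TPM, which also corrects for transcript length, where different genes are compared. Counts per library were between 16504419 and 24668827 (median 18635282), at which 3 counts, taken as the floor of detection for counting error, equal 0.117 to 0.206 CPM. One edgeR quasi-likelihood fit of 17011 genes gave the tests, adjusted by Benjamini-Hochberg, and a gene is called at an adjusted p under 0.05. All 10 genes passed the filter on low counts, Cdkn2a only through the Cre(+) groups, since no Cre(-) library reached the minimum of 0.541 CPM. Gpnmb, a TFE3 target used as a check of the fusion, rose from 0.99 to 2.14 CPM in Cre(-) libraries to 13009 to 15629 in KI libraries. Hif1a, on whole-gene counts, lay at 162.6 to 198.5 CPM in Hif1a KO and 184.0 to 231.6 in KI kidneys (log2 fold change -0.21, edgeR adjusted p 0.372), and Epas1, which encodes HIF2a, at 136.5 to 149.3 CPM in Hif2a KO and 173.2 to 191.7 in KI kidneys (-0.33, adjusted p 0.0788). Neither deletion can therefore be read from these counts, and the groups rest on the labels. The Y-linked genes Ddx3y and Eif2s3y did not exceed 0.186 and 0.166 TPM in any of the 17 libraries. Mice are separate samples by their labels, and library numbers run in blocks by group except that a DKO library lies among those of Hif2a KO, so that the part of library order in the differences between the other groups cannot be told apart from genotype.

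Kidneys of the KI group differed from Cre(-) kidneys at most genes, with 60.9% of 17011 genes called, and the RNA of cell type markers moved too. All 7 proximal tubule markers fell (summed TPM 16500 to 26080 in Cre(-) and 217.0 to 279.3 in KI libraries), as did all 5 markers of the loop and distal tubule and all 4 podocyte markers. Of 5 collecting duct markers 4 were called lower and 1 higher, and of 4 endothelial markers 2 were called lower and 0 higher. Of 5 leukocyte markers 4 rose (10.9 to 13.5 against 1577 to 1767 summed TPM), as did 3 of 4 fibroblast and all 4 tubule injury markers, and no marker of these lists was at 0 in all libraries of a group. KI replicate 2 had an adipocyte marker sum of 2937 TPM, where the other KI libraries had 68.5 and 196.8. Fewer cells of a type and less RNA per cell cannot be told apart in bulk RNA, and the part of these shifts in the results below was not tested.

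**Figure D1:**
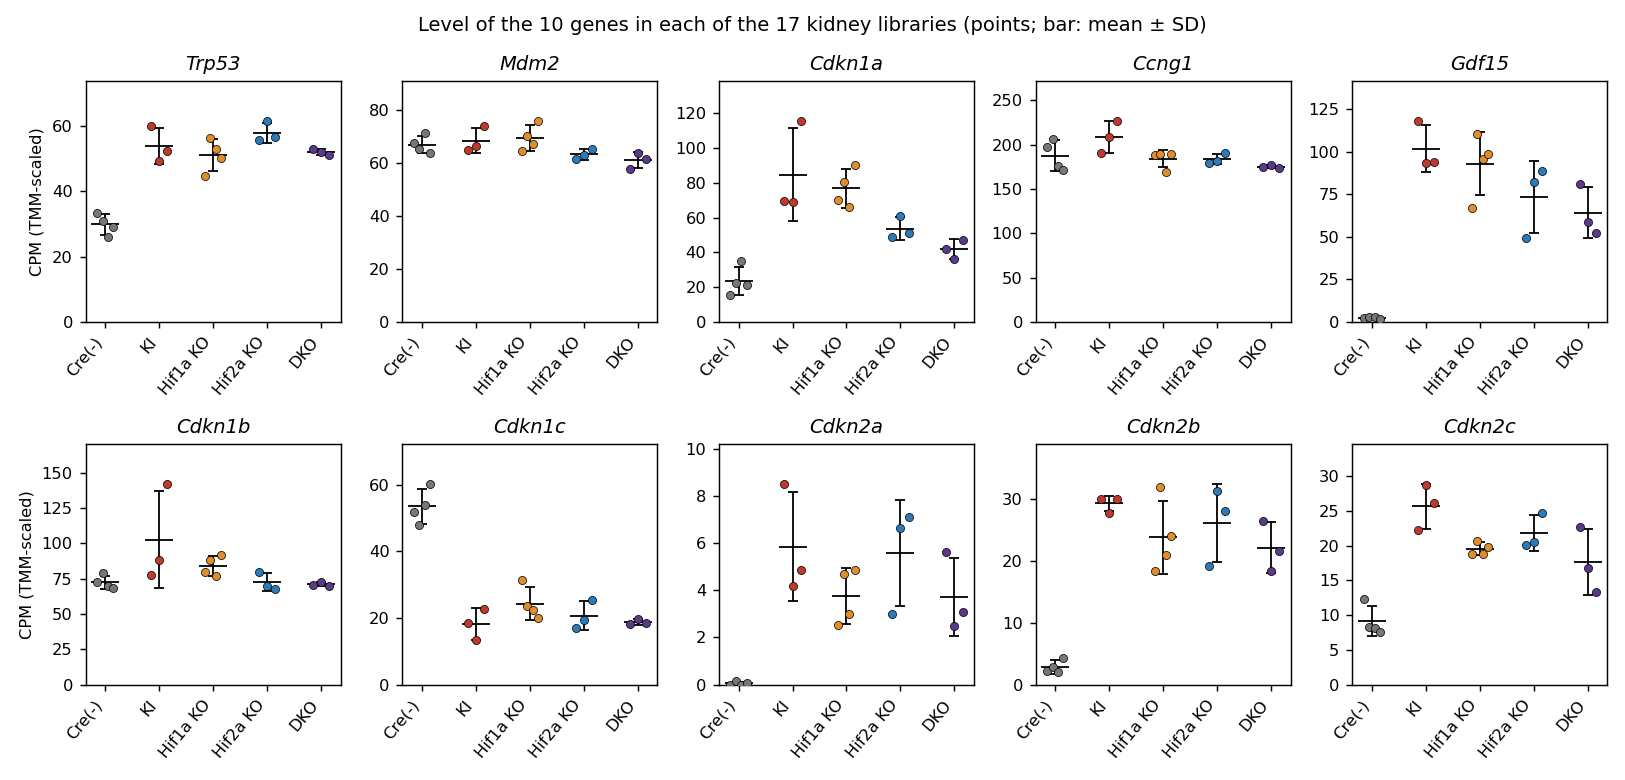
Level of each gene in CPM (linear axis from 0, a scale of its own for each gene) in every library of the 5 groups, with points for libraries and a bar for the mean ± SD. Gdf15, Cdkn2a, Cdkn2b, Cdkn2c, Trp53 and Cdkn1a lie higher and Cdkn1c lower in all Cre(+) libraries than in all Cre(-) libraries, while Mdm2, Ccng1 and Cdkn1b overlap with Cre(-).

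In KI against Cre(-) kidneys 7 of the 10 genes were called higher and 1 lower, where 31.6% of all genes were called higher and 29.3% lower. Their median log2 fold change was 1.17, against 0.03 over all genes. Between KI and Cre(-) libraries 7 of the 10 did not overlap, where 56.6% of all genes did not.

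Trp53, on chromosome 11 from 69580359 to 69591873 (GRCm38, + strand), stood at 33.4, 31.0, 25.9 and 29.0 CPM without Cre and at 60.0, 49.2 and 52.2 CPM in KI mice. Every KI library lay above every Cre(-) library. The log2 fold change was 0.85 (SE 0.09, edgeR adjusted p 1.37e-06), a 1.80-fold rise of the RNA of the p53 gene. Its 6 annotated transcripts share most of their sequence, and the share estimated for Trp53-203 ran from 2.97% to 53.8% of Trp53 TPM among the 3 KI libraries, so the transcripts were not compared.

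Mdm2, the ligase that degrades p53, did not pass the test. Its Cre(-) values were 67.6, 65.2, 71.4 and 63.8 CPM, its KI values 65.1, 66.4 and 74.0 CPM, and the groups overlapped. The log2 fold change was 0.03 (SE 0.07, edgeR adjusted p 0.708).

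Cdkn1a, the p21 gene, is on chromosome 17 from 29090976 to 29100727. Cre(-) kidneys gave 15.4, 22.2, 34.8 and 21.5 CPM, and KI kidneys 69.4, 68.7 and 115.4. The groups did not overlap, and KI replicate 3 was the highest of all 17 libraries. The log2 fold change was 1.85 (SE 0.23, edgeR adjusted p 5.00e-06). Transcript Cdkn1a-201, from the downstream start, held 89.4% to 94.3% of Cdkn1a TPM in KI and 88.6% to 93.7% in Cre(-) libraries. Cdkn1a-202 and Cdkn1a-204, which begin near the upstream start whose window holds the pair of half-sites, were at 0 in all Cre(-) libraries and averaged 0.752 and 0.278 TPM in KI libraries, against 64.0 TPM for Cdkn1a-201. Cdkn1a shares 273 exon bases with an antisense gene, and whether the counting used strand is not stated, so reads from the pair may not be separated.

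Ccng1, which encodes cyclin G1 and has the other pair of half-sites in its window, measured 197.0, 206.9, 176.4 and 170.9 CPM in the controls and 190.4, 208.7 and 226.4 with the fusion alone. The groups overlapped, and the log2 fold change of 0.15 (SE 0.08, edgeR adjusted p 0.113) did not pass. Without the Cre(-) mice that carry HIF1af/f it was 0.27 and passed (adjusted p 0.0147), and it also passed without Cre(-) replicate 2 (0.21, adjusted p 0.0383) or KI replicate 1 (0.21, adjusted p 0.0456).

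Gdf15, a cytokine of the TGF-beta superfamily, had the lowest p of the 10 genes. Control values were 2.13, 2.89, 2.91 and 1.89 CPM, and KI values 117.9, 93.4 and 94.2 CPM. The groups lay far apart, with a log2 fold change of 5.36 (SE 0.26, edgeR adjusted p 4.81e-10), or 41.2-fold. Transcript Gdf15-202, from the upstream start, held 93.4% to 94.7% of Gdf15 TPM in KI libraries, and Gdf15-201, whose window holds CACGTG, the rest. Per length, Gdf15 went from 2.05 ± 0.54 TPM (SD, n = 4) to 117.6 ± 20.2 TPM (SD, n = 3), and so from the next to lowest level of the 10 genes to the highest.

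Of the textbook p53 targets among the 10, Cdkn1a and Gdf15 thus rose while Mdm2 and Ccng1 did not pass the test, although Trp53 RNA was higher. How Mdm2 and Ccng1 are read depends on the scaling of the libraries. TMM factors were 0.793 to 0.833 in Cre(-) libraries and 0.974 to 1.07 in KI libraries. Scaled by library totals alone, the median log2 fold change of all genes was 0.37, Mdm2 stood at 0.38 (edgeR adjusted p 0.000167) and Ccng1 at 0.49 (adjusted p 3.57e-05), and both passed. With limma on log2(TPM + 1) the median was 0.38, Mdm2 0.42 (limma adjusted p 0.00203) and Ccng1 0.61 (adjusted p 2.34e-05). Mdm2 thus lay close to the median of all genes each time. The split of all calls moved as well, from 5381 higher and 4981 lower with TMM to 8546 higher and 2991 lower with library totals.

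**Figure D2:**
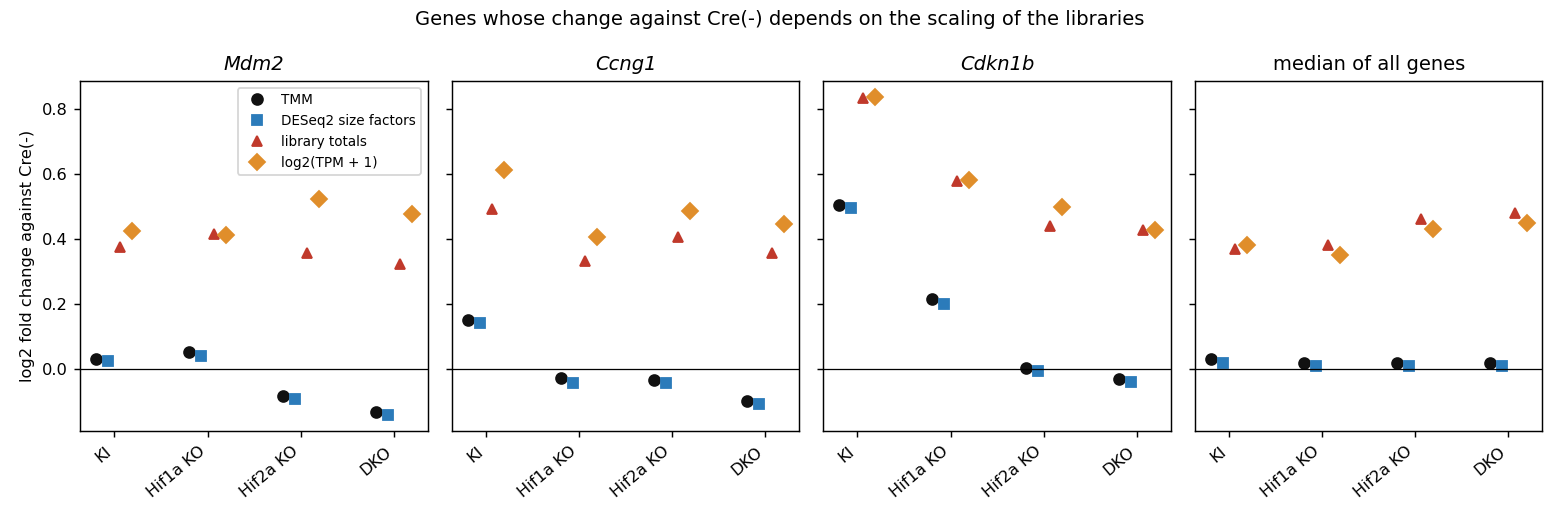
Log2 fold change of Mdm2, Ccng1 and Cdkn1b against Cre(-) in each Cre(+) group, and the median over all genes tested, with one symbol for each way of scaling the libraries (no error bars). With TMM or DESeq2 size factors Mdm2 and Ccng1 lie between -0.14 and 0.15 in the 4 groups, and with library totals or TPM they lie at 0.32 or above, where the median of all genes lies at 0.35 or above.

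Cdkn1b, the p27 gene of the CIP/KIP family, ranged over 72.5, 79.2, 69.6 and 68.4 CPM in controls and 77.5, 88.5 and 142.1 CPM in KI mice. The highest value was that of KI replicate 3, also the highest for Cdkn1a, and KI replicate 1 lay within the Cre(-) range. The log2 fold change of 0.50 (SE 0.15) passed the test (edgeR adjusted p 0.00875). Without KI replicate 3 it was 0.20 and did not pass (adjusted p 0.0831), and it stood at 0.44 (adjusted p 0.065) against the Cre(-) mice with HIF1af/f alone.

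Cdkn1c, the p57 gene, was the only one of the 10 called lower. The controls measured 51.8, 48.1, 53.8 and 60.3 CPM and the KI mice 18.5, 13.4 and 22.8 CPM, without overlap. The log2 fold change was -1.56 (SE 0.18, edgeR adjusted p 2.90e-06). In the healthy kidney p57 is best known from podocytes, whose 4 markers summed to 148.2 to 172.1 TPM in Cre(-) and 36.1 to 59.6 TPM in KI libraries. Cdkn1c shares 625 exon bases with an antisense gene, with the same reservation on strand.

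Cdkn1c lies in an imprinted cluster on chromosome 7 (its own span is 143458339 to 143461050), and 7 genes of a list of 10 imprinted neighbours could be tested. Of these 5 were lower and none higher in KI kidneys, where 29.3% of all genes were called lower and 31.6% higher. Igf2, a fetal growth factor, fell from a mean of 111.5 to 6.19 TPM (log2 fold change -5.22, SE 0.60), and Slc22a18, a transporter gene, from 197.6 to 39.4 TPM (-2.83, SE 0.27). Phlda2 stood at 13.7 and 10.2 TPM (-0.95, SE 0.14). With library totals or TPM 5 were lower and 2 higher.

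The INK4 genes among the 10, Cdkn2a, Cdkn2b and Cdkn2c, rose. Cdkn2d, the remaining gene of the family and not among the 10, had 4.24 to 6.51 CPM in controls and 5.86 to 6.68 CPM in KI kidneys and did not pass (log2 fold change 0.22, SE 0.15, edgeR adjusted p 0.212). Cdkn2a was close to undetected in Cre(-) kidneys, with 0, 3, 0 and 1 counts, and had 148, 78 and 85 counts in the KI kidneys, or 8.51, 4.20 and 4.85 CPM. Over the group, KI libraries held 93.3 times the Cre(-) level (95% exact interval 36.1 to 345, counting error only), with no overlap. Cdkn2a passed the filter on low counts only through the groups where it is high, and it was called as well with no filter (edgeR adjusted p 1.11e-07). Of the other 9 genes 6 were called higher in KI. The 4 counts of Cre(-) leave this ratio imprecise.

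The products of Cdkn2a begin at first exons of their own, and their start windows are printed to show these separate starts, with none of the motifs in either.
Cdkn2a, p16Ink4a start, chr4:89282143-89282442, - strand: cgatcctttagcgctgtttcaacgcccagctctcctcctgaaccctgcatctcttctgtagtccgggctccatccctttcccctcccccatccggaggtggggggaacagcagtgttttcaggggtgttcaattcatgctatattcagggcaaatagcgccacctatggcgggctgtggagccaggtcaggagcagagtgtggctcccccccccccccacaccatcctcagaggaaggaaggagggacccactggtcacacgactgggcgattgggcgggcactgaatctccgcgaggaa
Cdkn2a, p19Arf start, chr4:89294570-89294869, - strand: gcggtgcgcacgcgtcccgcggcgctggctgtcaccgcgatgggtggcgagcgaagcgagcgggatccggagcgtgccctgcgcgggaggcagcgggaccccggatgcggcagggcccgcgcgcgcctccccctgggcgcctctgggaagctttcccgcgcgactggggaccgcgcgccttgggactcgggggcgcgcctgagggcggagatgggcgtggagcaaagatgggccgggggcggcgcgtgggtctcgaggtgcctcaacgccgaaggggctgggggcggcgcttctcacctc
Transcript Cdkn2a-201 (p16Ink4a) was at 0 to 0.243 TPM in Cre(-) libraries and at 3.05, 1.89 and 4.04 TPM in KI libraries. Transcript Cdkn2a-202 (p19Arf) was at 0 in all 4 Cre(-) libraries and at 13.3, 6.20 and 4.57 TPM in KI libraries. The p19Arf transcript had the higher estimate in 13 of 13 Cre(+) libraries, with 53.1% to 81.4% of Cdkn2a TPM in KI. Both estimates rest on few reads, 17.5 to 121.7 expected counts per KI library, and later exons are shared.

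**Figure D3:**
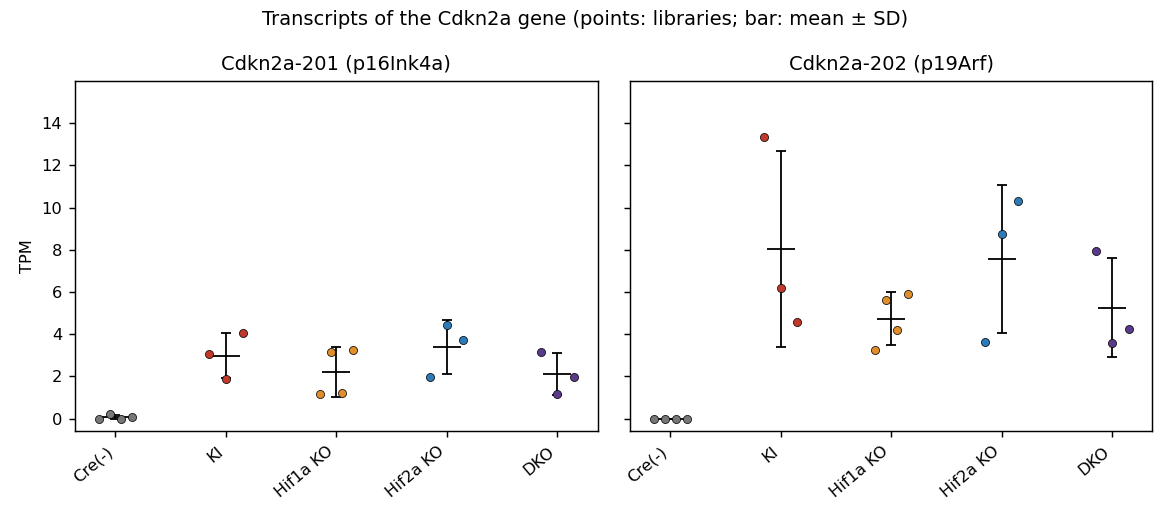
TPM of the p16Ink4a and p19Arf transcripts of Cdkn2a (same linear axis) in each library, with points for libraries and a bar for the mean ± SD. Neither transcript exceeds 0.243 TPM in Cre(-) libraries, and in the Cre(+) groups the p19Arf estimates run from 3.24 to 13.3 TPM and the p16Ink4a estimates from 1.16 to 4.46 TPM.

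Cdkn2b, the p15 gene next to Cdkn2a on chromosome 4 (89306299 to 89311039), gave 2.13, 2.78, 2.12 and 4.36 CPM in controls against 30.0, 27.7 and 29.9 CPM in KI mice. The groups did not overlap, and the log2 fold change was 3.35 (SE 0.25, edgeR adjusted p 3.26e-08). Cdkn2c, the p18 gene, lies elsewhere on the chromosome (109660876 to 109667189). Its controls stood at 12.3, 8.30, 8.21 and 7.64 CPM and its KI libraries at 22.2, 28.7 and 26.1 CPM. Its log2 fold change was 1.49 (SE 0.18, edgeR adjusted p 3.00e-06), and the lowest KI library stood above the highest Cre(-) library.

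By length-corrected level, Ccng1 was the most abundant of the 10 in Cre(-) kidneys (60.0 ± 7.9 TPM, SD, n = 4), followed by Cdkn1c (44.7 ± 2.9), Mdm2 (31.2 ± 3.0) and Cdkn1b (30.0 ± 3.5), the last pair within each other's spread. In KI kidneys the order was Gdf15 (117.6 ± 20.2, SD, n = 3), Ccng1 (91.7 ± 4.4), Cdkn1a (69.7 ± 17.3) and Cdkn1b (55.4 ± 15.8), where Cdkn1a and Cdkn1b lay within each other's spread. Cdkn2a was the lowest in both groups, at 0.082 ± 0.115 and 11.0 ± 4.6 TPM.

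The other groups with the fusion gave the same calls except for Cdkn1b. Against Cre(-), 6 of the 10 genes were called higher and 1 lower in Hif1a KO kidneys (61.9% of all genes called, 31.9% higher and 30.1% lower), in Hif2a KO kidneys (61.9%, 32% and 29.9%) and in DKO kidneys (58.3%, 30.4% and 27.9%). With library totals 76.2%, 79.1% and 81.6% of all calls were higher, against 51.5%, 51.7% and 52.1% with TMM. The genes higher in each were Trp53, Cdkn1a, Cdkn2a, Cdkn2b, Cdkn2c and Gdf15, and the lower one was Cdkn1c. Cdkn2a is counted here with the same reservation on the filter. All 7 were free of overlap with Cre(-) in each group, where 56.1%, 59.7% and 59.3% of all genes were. These 3 comparisons and that of KI share the Cre(-) libraries and are not independent.

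Gdf15 had 67.2, 110.4, 95.5 and 98.8 CPM in Hif1a KO, 49.5, 82.1 and 88.6 in Hif2a KO, and 80.9, 58.9 and 52.3 in DKO kidneys. Its log2 fold changes against Cre(-) were 5.23, 4.89 and 4.69 (SE 0.25 to 0.26). Trp53 lay between 44.8 and 61.4 CPM in the 10 libraries of these groups, with log2 fold changes of 0.77, 0.96 and 0.80 against Cre(-) (SE 0.09 each). Cdkn1c lay between 16.9 and 31.3 CPM in them, and its log2 fold changes were -1.14, -1.37 and -1.51 (SE 0.16 to 0.18).

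Cdkn2a had 42 to 125 counts in the Hif1a KO libraries, 69 to 152 in Hif2a KO and 47 to 115 in DKO. The pooled ratios to Cre(-) were 62.3 (24.1 to 230), 88.1 (34.1 to 325) and 60.2 (23.2 to 223), with wide intervals that hold counting error only. All share the same 4 counts of Cre(-), so their overlap does not compare these groups with each other. Cdkn2b lay between 18.3 and 31.9 CPM in the same 10 libraries, with log2 fold changes of 3.06, 3.19 and 2.95 (SE 0.24 to 0.25). Those of Cdkn2c were 1.10, 1.26 and 0.95 (SE 0.17 to 0.18), at 13.3 to 24.8 CPM.

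Cdkn1a had the widest range of log2 fold changes against Cre(-) among the groups with the fusion. Its CPM were 69.8, 80.6, 66.2 and 90.4 in Hif1a KO, 49.1, 61.1 and 51.0 in Hif2a KO, and 42.0, 36.0 and 47.3 in DKO kidneys. All DKO libraries lay below all other libraries with the fusion and above all Cre(-) libraries, although the gap between the lowest DKO library (36.0) and Cre(-) replicate 3 (34.8) was small. The log2 fold changes against Cre(-) were 1.71, 1.19 and 0.83 (SE 0.22 to 0.23, edgeR adjusted p 6.66e-06, 0.000331 and 0.00592). For DKO the value fell to 0.58 and did not pass (adjusted p 0.069) against the Cre(-) mice without a floxed gene, which include replicate 3.

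Mdm2, Ccng1 and Cdkn1b were not called in any of these 3 groups. Their log2 fold changes lay between -0.13 and 0.22 with TMM, and all turned positive and passed with library totals or TPM, as in KI kidneys for Mdm2 and Ccng1. The plot of scaling shows these values beside the median of all genes.

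**Figure D4:**
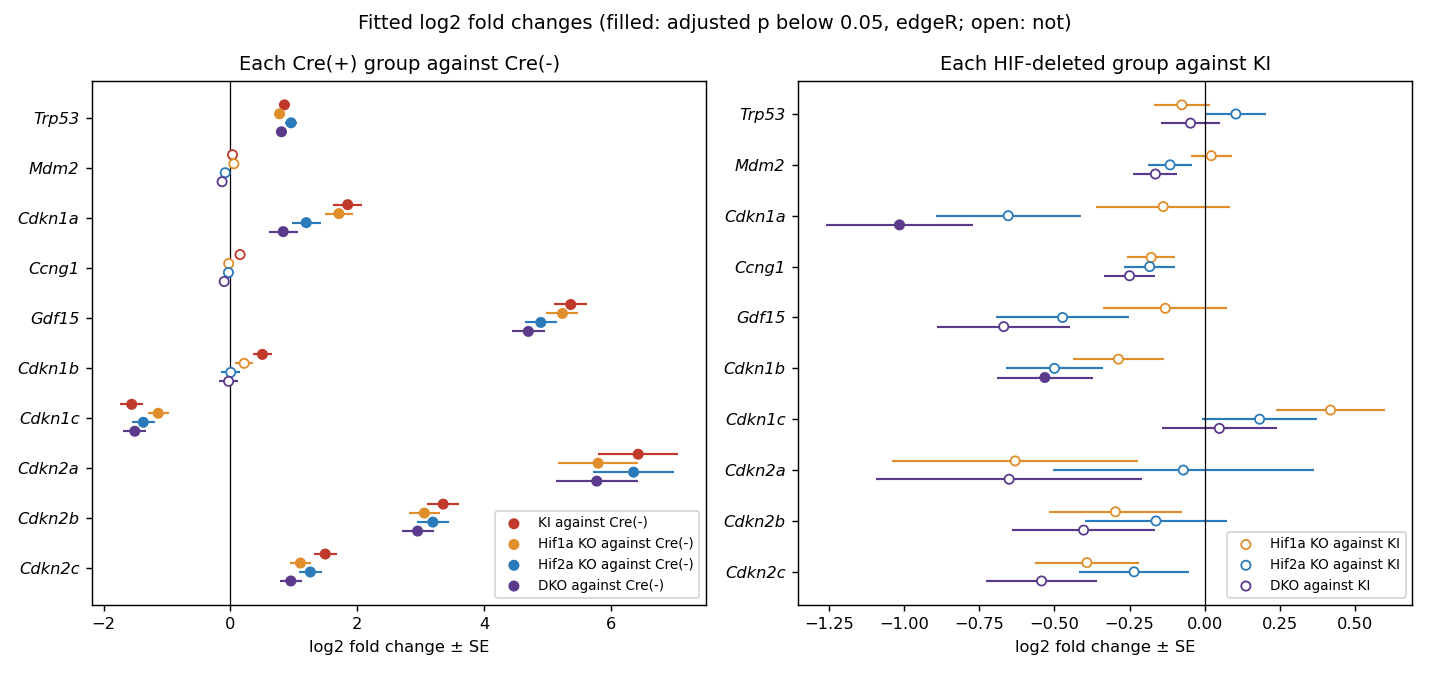
Log2 fold changes ± SE of the 10 genes (TMM scaling) for each Cre(+) group against Cre(-) (left) and for each Hif-deleted group against KI (right), each panel on its own axis. Filled symbols passed at an adjusted p under 0.05, which against KI holds only for Cdkn1a and Cdkn1b in DKO.

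Loss of the HIF factors was examined against KI kidneys. Of 7 proximal tubule markers 4 were called higher in Hif1a KO, 0 in Hif2a KO and 5 in DKO than in KI kidneys, and none lower. Of 5 leukocyte markers 1 was higher and 1 lower in Hif1a KO and in DKO, and none was called in Hif2a KO. Summed proximal tubule markers were at 340.2 to 1231 TPM in Hif1a KO, 283.2 to 1082 in Hif2a KO and 893.8 to 2727 in DKO libraries, against 217.0 to 279.3 in KI. Leukocyte markers summed to 699.4 to 1052, 953.1 to 1281 and 569.9 to 963.4 TPM, against 1577 to 1767 in KI, and mean Gpnmb was 4599, 7019 and 3486 TPM, against 11471. Their part in the values below was not tested.

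In Hif1a KO against KI none of the 10 genes was called by edgeR, with 5.44% of all genes called (273 to 1169 genes instead of 925 with 1 library left out). At an unadjusted p under 0.05 there were 3, and the share of all genes at that threshold was not counted. DESeq2 called none of the 10 genes either. Their log2 fold changes ran from -0.63 for Cdkn2a (SE 0.41) to 0.42 for Cdkn1c (SE 0.18, adjusted p 0.186). Cdkn2c, at 18.8 to 20.7 CPM, and Ccng1, at 169.4 to 189.7 CPM, lay below all KI libraries in all 4 Hif1a KO libraries (log2 fold changes -0.39 and -0.18, adjusted p 0.196 and 0.200), where 10.3% of all genes lay lower throughout. The lowest KI library had 190.4 CPM of Ccng1, a small gap.

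In Hif2a KO against KI none was called by edgeR or DESeq2. With edgeR 1.39% of all genes were called (13 genes instead of 236 without KI replicate 3, 857 without KI replicate 1). At an unadjusted p under 0.05 there were 4 of the 10, and the share of all genes at that threshold was not counted. Cdkn1a had a log2 fold change of -0.65 (SE 0.24, edgeR adjusted p 0.160), Cdkn1b of -0.50 (SE 0.16, adjusted p 0.114) and Gdf15 of -0.47 (SE 0.22, adjusted p 0.259). Without KI replicate 1 Cdkn1b passed (-0.67, adjusted p 0.0224). Cdkn1a, Ccng1 and Gdf15 lay lower in all Hif2a KO libraries, where 10.7% of all genes did. For Ccng1 the gap was very small, from 190.16 CPM in Hif2a KO replicate 3 to 190.38 in KI replicate 1. Of all calls 53.4% were higher with TMM and 79.6% with library totals.

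In DKO against KI, Cdkn1a and Cdkn1b were called lower and no gene of the 10 higher, with 12.7% of all genes called and 6.19% called lower (instead of 2164 genes, 722 were called without DKO replicate 2, 790 without DKO replicate 3 and 915 without KI replicate 3). Cdkn1a fell by 1.02 on the log2 scale (SE 0.24, edgeR adjusted p 0.0156), to 41.8 ± 5.7 CPM (SD, n = 3) from 84.5 ± 26.8 (SD, n = 3). Cdkn1b had 70.6, 72.5 and 70.0 CPM in DKO kidneys, all below the KI kidneys and within the range of Cre(-), with a log2 fold change of -0.53 (SE 0.16, adjusted p 0.0417). Without KI replicate 3 they were -0.73 (adjusted p 0.0816) and -0.22 (adjusted p 0.192), and none of the 10 was called. None was called without DKO replicate 2 either, at -0.92 (adjusted p 0.077) and -0.55 (adjusted p 0.113). Cdkn1b also failed without DKO replicate 1 or 3 (adjusted p 0.0836 and 0.118), where Cdkn1a passed. Of all calls in this comparison 51.3% were higher with TMM and 74.6% with library totals.

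Gdf15 (-0.67, SE 0.22, edgeR adjusted p 0.0598), Ccng1 (-0.25, SE 0.09, adjusted p 0.0651) and Cdkn2c (-0.54, SE 0.19, adjusted p 0.0662) narrowly missed the threshold in DKO against KI. DESeq2 called all 3. On data simulated for KI against Cre(-), DESeq2 made 14.9% false calls and edgeR 5.7%. Those data were drawn with the spread that edgeR estimates and for another comparison, so they cannot decide between the tests here. Of the 10 genes 6 lay lower in all DKO than in all KI libraries (Mdm2, Cdkn1a, Cdkn1b, Cdkn2b, Ccng1 and Gdf15), where 17.2% of all genes did. For Mdm2 the gap was small, from 64.0 CPM in DKO replicate 2 to 65.1 in KI replicate 1. Trp53 (-0.05, SE 0.10) and Cdkn1c (0.05, SE 0.19) overlapped. With library totals or TPM only Cdkn1a passed.

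Hif1a KO and Hif2a KO did not differ at any of the 10 genes by edgeR or DESeq2. With edgeR 0.429% of all genes were called, or 73 genes, against 1 without Hif2a KO replicate 2 and 193 without Hif2a KO replicate 1. At an unadjusted p under 0.05 there was 1 of the 10, and the share of all genes at that threshold was not counted. The gene with that p was Cdkn1a, higher in all 4 Hif1a KO than in all 3 Hif2a KO libraries (log2 difference 0.52, SE 0.23, edgeR adjusted p 0.300), where 8.31% of all genes were. Of all calls 76.7% were higher in Hif1a KO with TMM and 59.7% with library totals. The interaction of Hif1a and Hif2a loss, which asks whether the double deletion departs from the sum of the single ones, was called by edgeR at 0 of the 10 genes and 0 of 17011 genes (0% called, 0 of the 10 at an unadjusted p under 0.05). DESeq2 called 31 genes, none of them among the 10. For Cdkn1a the interaction was -0.22 (SE 0.33), an SE larger than the estimate.

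Other p53 targets were examined through a list of 28 genes. In KI against Cre(-) kidneys, where 31.6% of all genes were called higher and 29.3% lower, 19 were higher and 1 lower (22 or 23 higher and none lower with library totals or TPM), and their median log2 fold change was 0.68. Phlda3, which restrains Akt, rose from 4.34 to 33.4 TPM (2.64, SE 0.23). Perp, a membrane protein of desmosomes and apoptosis, rose from 37.5 to 290.1 TPM (2.497, SE 0.22) and Eda2r, a receptor gene, from 0.370 to 2.84 TPM (2.48, SE 0.22). Pidd1, a death domain adaptor, was the lower one (-0.70, SE 0.20).

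Perp was also the target that moved with Hif loss. Its log2 fold change against KI was -1.002 in Hif1a KO (SE 0.22, edgeR adjusted p 0.018), -1.08 in Hif2a KO (SE 0.23, adjusted p 0.0395) and -1.60 in DKO (SE 0.24, adjusted p 0.00173), and in each case it was the only or the most changed of the 28. In DKO 3 more were lower, named here after their values were seen: Apaf1 (-0.55), the apoptosome scaffold, Bax (-0.34), a pore-forming protein of apoptosis, and Aen (-0.33), a nuclease of apoptosis. Over all genes 6.19% were called lower in DKO against KI. With library totals or TPM 1 of the 28 was lower.

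Of 16 genes that regulate p53 or resemble it, 4 were higher and 1 lower in KI kidneys with TMM, and 10 higher and none lower with library totals. With TMM 31.6% of all genes were called higher and 29.3% lower. The median log2 fold change of the list was 0.03, and that of all genes was 0.03 too. Ppp1r13l (iASPP, an inhibitor of p53) had a log2 fold change of 1.44 (SE 0.16), Chek2, a DNA damage kinase, of 1.10 (SE 0.12), and Trp63, a relative of p53, of 1.15 (SE 0.47) with overlapping groups. Usp7, which deubiquitinates Mdm2 and p53, was lower with TMM (-0.22) but 0.13 with library totals.

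Of 15 genes of G1 cyclins, their kinases, pocket proteins and related inhibitors, 9 were higher, 3 lower and 3 not called in KI kidneys (11 higher and 1 lower with library totals). Over all genes 31.6% were called higher and 29.3% lower with TMM. Ccne1 (cyclin E1) had a log2 fold change of 2.54 (SE 0.62), Ccnd1 (cyclin D1) rose from 94.8 to 598.7 TPM (2.18, SE 0.18), and Cdk6, a kinase that INK4 proteins bind, rose from 3.89 to 13.5 TPM (1.46, SE 0.09). Ccnd3 (cyclin D3) was lower (-0.94, SE 0.09), and so were Rbl2 (-0.34) and Rb1 (-0.29), pocket proteins whose values were 0.005 and 0.06 with library totals. Ccnd1 was lower in Hif1a KO (-0.81, edgeR adjusted p 0.0214) and DKO (-0.88, adjusted p 0.0115) than in KI kidneys.

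Of 20 proliferation genes 18 were higher and 1 lower in KI kidneys (19 higher and none lower with library totals or TPM), where 31.6% and 29.3% of all genes were with TMM. Cdk1, the mitotic kinase, rose from 0.817 to 7.98 TPM (log2 fold change 2.91, SE 0.32), with Ccnb1 (2.67, SE 0.33) and Ccnb2 (2.64, SE 0.33), its cyclins. Tyms, a thymidylate synthase, was the lower one (-0.48), with 0.09 in limma on log2(TPM + 1). Cdkn1a, Cdkn2a, Cdkn2b and Cdkn2c were thus higher in the same RNA as these genes, and Cdkn1c lower, which does not show whether they were so in the same cells. In Hif1a KO, Hif2a KO and DKO against KI none of the 20 passed by edgeR (1, 11 and 0 at an unadjusted p under 0.05). Over all genes 5.44%, 1.39% and 12.7% were called at the adjusted threshold, and the share at the unadjusted one was not counted.

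Of 15 senescence-associated genes that could be tested 9 were higher and 3 lower in KI kidneys (11 and 2 with library totals), where 31.6% and 29.3% of all genes were with TMM. The list mixes genes that rise in senescent cells with Lmnb1 (lamin B1) and Hmgb2, whose loss is a mark of senescence. Lmnb1, named after its value was seen, was among the 9 higher genes (log2 fold change 1.07, SE 0.16), and Hmgb2 did not pass (0.34, SE 0.19). The chemokines Cxcl2 and Cxcl1 had log2 fold changes of 3.99 (SE 0.59) and 3.98 (SE 0.41). The lower genes were Igfbp5 (-1.42, SE 0.21) and Igfbp3 (-0.56, SE 0.17), which bind insulin-like growth factors, and Glb1 (-1.20, SE 0.10), the lysosomal beta-galactosidase used as a stain for senescence.

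Gdf15 is also raised by the integrated stress response, whose part in its rise here was not tested. Of 12 genes of that response 8 were higher and none lower in KI kidneys (8 with library totals), where 31.6% and 29.3% of all genes were with TMM. The transcription factors Atf3 (4.26, SE 0.29) and Ddit3 (2.697, SE 0.18), the latter from 27.8 to 247.0 TPM, and Trib3 (1.61, SE 0.25), a pseudokinase, led. The other 4 were not called. The lowest values, outside the naming rule, were those of Chac1 (-0.37), Psat1 (-0.30), Sesn2 (-0.17) and Asns (0.17). In DKO against KI 4 were lower, where 6.19% of all genes were. They were Atf3 (-1.58, SE 0.28, edgeR adjusted p 0.00376), Ddit3 (-1.06, SE 0.18, adjusted p 0.00342), Trib3 (-0.95, SE 0.26, adjusted p 0.0281) and Atf5 (-0.64, SE 0.20, adjusted p 0.0446), the last named after its value was seen. In Hif1a KO against KI, with 5.44% of all genes called, Ddit3 (-0.89) and Atf3 (-1.19) were lower. Psat1, of serine synthesis and outside the naming rule, was higher (0.98).

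For p27, whose protein is controlled by turnover and whose gene is a FoxO target, 9 genes were listed. In KI kidneys 1 was higher and 3 lower (5 and 2 with library totals), where 31.6% and 29.3% of all genes were with TMM. Cks1b, a cofactor of the ligase that marks p27, had a log2 fold change of 1.76 (SE 0.21). Skp1a, of the same ligase, was lower (-0.85, SE 0.09), as were the FoxO factors Foxo1 (-0.81, SE 0.11) and Foxo3 (-0.71, SE 0.20).

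**Figure D5:**
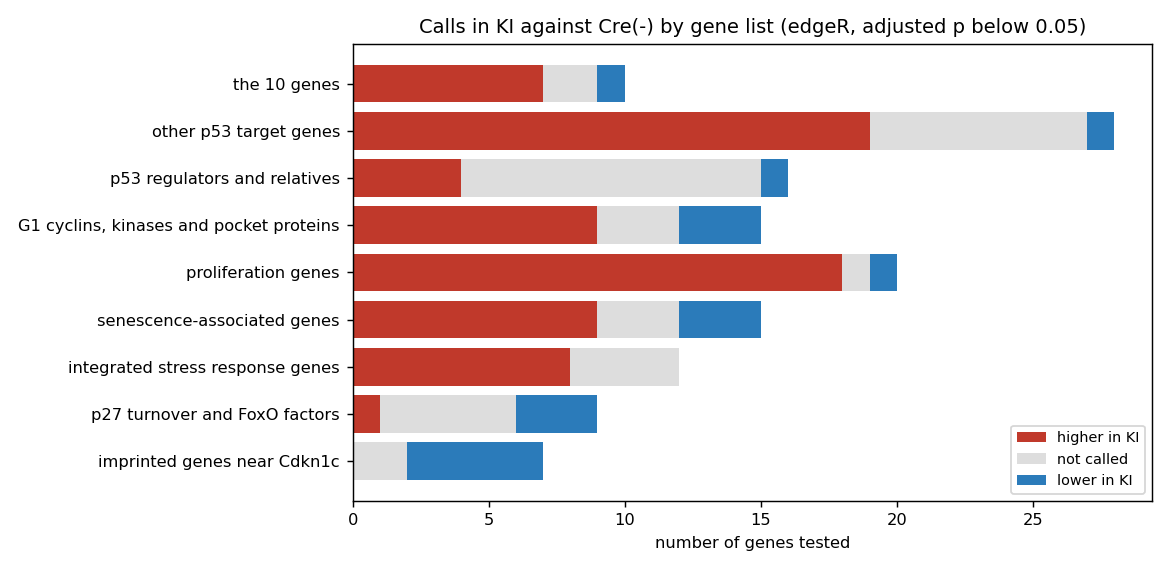
Number of genes of each list that were called higher, not called or called lower in KI against Cre(-) kidneys with TMM scaling (horizontal stacked bars from 0). Proliferation genes (18 of 20) and other p53 targets (19 of 28) lie mostly in the higher class, and none of the 7 imprinted genes near Cdkn1c does.

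The genes most like 4 of the p53 targets were sought by Pearson correlation of log2 CPM over the 13 libraries with the fusion, among 14711 other genes with a mean TPM of at least 1. For Cdkn1a they were Pvr (r = 0.97), Mb21d2 (0.95) and 1700047I17Rik2 (0.94), and for Ccng1 they were Rchy1 (0.95), which encodes a ubiquitin ligase for p53, Rabggtb (0.94) and Gtf2h1 (0.93). For Mdm2 they were Bag3 (0.92), Ranbp9 (0.92) and Nars (0.89), and for Gdf15 they were Lrp8, Nploc4 and Wdr7 (0.91 each). These are the highest of many correlations over few libraries that share their groups, and they are given as a description.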

How the data were processed

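Kidney RNA of 17 mice was sequenced from TruSeq stranded mRNA libraries. The submitters' processing notes name Trim Galore 0.6.6, cutadapt 2.5, STAR 2.7.9a and the builds GRCm38 and hg38, and the methods name RSEM, while the transcripts listed are those of the mouse. The authors deposited expected counts per transcript, which are estimates without normalization between libraries, and the authors also deposited TPM, scaled for transcript length and library. Of 119353 transcripts 116770 (97.8%) matched GENCODE M21, holding 99.04% to 99.24% of each library's counts. Sums per gene were rounded to whole numbers. filterByExpr (minimum count 10) kept 17011 of 35971 genes.

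edgeR 4.0.16 (R 4.3.3) with TMM factors fitted all groups together by its quasi-likelihood method, with p-values adjusted by Benjamini-Hochberg and a threshold of 0.05. CPM use TMM-scaled totals. On simulated data of 16743 genes for KI against Cre(-), it called 149 of 200 changed genes (78% at 4-fold, 71% at 2-fold) with 5.7% false calls. Scaling by library totals gave the same values on these data. The simulated counts were drawn in proportion to library totals, so they cannot compare the scalings. In the kidneys 60.9% of genes were called in this comparison, and the rate of false calls with so many genes called was not tested. Alternatives were DESeq2 1.42.0, its size factors, library totals, no filter, fits of the groups compared, a replicate block, limma 3.58.1 on log2(TPM + 1) and log2(TPM + 0.1), either pair of Cre(-) mice, and each library left out. No pair of libraries was identical. Nothing in the labels says which mice were litter mates.

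The 10 genes and the lists were chosen with earlier results of these data known. Genes of a list were named by rule: up to 3 higher and 3 lower with the largest log2 fold change in KI against Cre(-), called and with 1 TPM or more as the mean of one of these groups. One gene that the rule names is not reported here. Positions are those of GENCODE M21 on GRCm38. Python 3.11.15, pandas 2.3.3 and matplotlib 3.10.9 were used.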

Additional observations from a re-analysis of the deposited data

Results flagged for a closer look

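In the groups of 4 mice, 20 sets of values were checked for a library far from the others by Dixon's ratio, and 2 exceeded 0.829, where chance flags about 1 in 20. Cdkn2c in Cre(-) replicate 1 stood at 12.3 CPM, above the other Cre(-) libraries at 7.64 to 8.30 CPM (ratio 0.86). Ccng1 in Hif1a KO replicate 3 stood at 169.4 CPM, below the other Hif1a KO libraries at 188.6 to 189.7 CPM (ratio 0.944). No interaction of Hif1a and Hif2a loss was called at the 10 genes.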

How the results depend on the processing

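Of the 8 calls in KI against Cre(-) and the 7 in each other group against Cre(-), Gdf15, Trp53, Cdkn1c, Cdkn2a, Cdkn2b and Cdkn2c held under all alternatives. In DKO against KI the 2 calls became 5 with DESeq2's test and 1 with library totals, with no filter on low counts, with the groups of the contrast alone, with the replicate block, with log2(TPM + 1) and with log2(TPM + 0.1), and 0 to 3 with a library left out. In Hif2a KO against KI the 0 calls became 0 to 1 with a library left out. Calls over all genes moved by more than 1.5 times in the contrasts against KI and between the single deletions. In Hif1a KO against KI the 925 became 1665 with DESeq2's test, 246 with the groups alone, 479 with the replicate block and 552 with log2(TPM + 0.1), and in Hif2a KO against KI the 236 became 1015, 2, 76 and 83. In DKO against KI the 2164 became 1028 with the groups alone. In Hif1a KO against Hif2a KO the 73 became 537, 132, 19 and 27, and 29 with log2(TPM + 1). With 1 library left out the 925 became 273 (without Hif1a KO replicate 3) to 1169 (Hif1a KO replicate 2), the 236 became 13 (KI replicate 3) to 857 (KI replicate 1), the 2164 became 722 (DKO replicate 2) to 2291 (KI replicate 1), and the 73 became 1 (Hif2a KO replicate 2) to 193 (Hif2a KO replicate 1), so the shares of all genes called in these contrasts depend on single libraries. The cause was not tested. The fit with the replicate number as a block moved Cdkn1b in DKO against KI to -0.52 (edgeR adjusted p 0.0789) and changed no other call of the 10 genes, and libraries of the same number did not deviate together (31 pairs, median r -0.03, range -0.22 to 0.25, against 0.01 for 84 pairs of other numbers), so the numbers were not taken as pairs.

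Single fold changes turned sign in 86 of the refitted values, none of which had been called in the reported fit. With library totals these were Ccng1 0.33 in Hif1a KO against Cre(-), Mdm2 0.36 and Ccng1 0.41 in Hif2a KO against Cre(-), Mdm2 0.32, Cdkn1b 0.43 and Ccng1 0.36 in DKO against Cre(-), Cdkn2a 0.019 in Hif2a KO against KI, Trp53 0.061 in DKO against KI, Ccng1 -0.073 in Hif1a KO against Hif2a KO. With log2(TPM + 1) these were Ccng1 0.41 in Hif1a KO against Cre(-), Mdm2 0.52 and Ccng1 0.49 in Hif2a KO against Cre(-), Mdm2 0.48, Cdkn1b 0.43 and Ccng1 0.45 in DKO against Cre(-), Mdm2 -0.012 in Hif1a KO against KI, Mdm2 0.099 in Hif2a KO against KI, Trp53 0.041 and Mdm2 0.054 in DKO against KI, Mdm2 -0.11 and Ccng1 -0.081 in Hif1a KO against Hif2a KO, Gdf15 0.027 in the interaction. With log2(TPM + 0.1) these were Ccng1 0.41 in Hif1a KO against Cre(-), Mdm2 0.53 and Ccng1 0.49 in Hif2a KO against Cre(-), Mdm2 0.49, Cdkn1b 0.44 and Ccng1 0.45 in DKO against Cre(-), Mdm2 -0.013 in Hif1a KO against KI, Mdm2 0.10 in Hif2a KO against KI, Trp53 0.042 and Mdm2 0.056 in DKO against KI, Mdm2 -0.11 and Ccng1 -0.082 in Hif1a KO against Hif2a KO, Gdf15 0.027 in the interaction. With Cre(-) mice without a flox allele these were Ccng1 0.087 in Hif1a KO against Cre(-), Ccng1 0.098 in Hif2a KO against Cre(-), Cdkn1b 0.052 and Ccng1 0.025 in DKO against Cre(-). With DESeq2's test these were Cdkn1b -0.005 in Hif2a KO against Cre(-), Ccng1 -0.002 in Hif1a KO against Hif2a KO. With DESeq2's size factors these were Cdkn1b -0.005 in Hif2a KO against Cre(-), Ccng1 -0.002 in Hif1a KO against Hif2a KO. With Cre(-) mice with HIF1af/f these were Cdkn1b -0.044 in Hif2a KO against Cre(-). With no filter these were Ccng1 -0.003 in Hif1a KO against Hif2a KO. With a library left out the ranges that crossed 0 were Mdm2 -0.026 to 0.069 in KI against Cre(-), Ccng1 -0.071 to 0.023 in Hif1a KO against Cre(-), Cdkn1b -0.066 to 0.066 and Ccng1 -0.076 to 0.034 in Hif2a KO against Cre(-), Cdkn1b -0.056 to 0.026 in DKO against Cre(-), Trp53 -0.14 to 0.009, Mdm2 -0.026 to 0.081, Cdkn1a -0.27 to 0.15 and Cdkn1b -0.45 to 0.020 in Hif1a KO against KI, Cdkn2a -0.28 to 0.30 and Cdkn2b -0.31 to 0.020 in Hif2a KO against KI, Trp53 -0.11 to 0.038 and Cdkn1c -0.13 to 0.24 in DKO against KI, Cdkn2b -0.33 to 0.016 and Ccng1 -0.026 to 0.030 in Hif1a KO against Hif2a KO, Cdkn1b -0.052 to 0.42, Cdkn2a -0.37 to 0.27, Cdkn2b -0.12 to 0.23, Cdkn2c -0.14 to 0.25 and Gdf15 -0.28 to 0.092 in the interaction. Of the other refitted values 1353 kept their direction and side of the threshold, 15 lost it and 26 gained it. The KI, Hif2a KO and DKO groups of 3 mice and the 4 counts of Cdkn2a in Cre(-) limit the precision.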
